A study of Mus musculus with 16 samples.

Results

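The genes described here are 38 mouse genes that are used to recognise microglia, the resident macrophages of the brain. They hold genes of the homeostatic state, such as P2ry12, Tmem119 and Sall1, and genes that microglia share with other myeloid cells, such as Itgam, Ptprc and Spi1. They were found by symbol, without regard to case, in a table of 53801 genes, and all 38 had 1 row each. Of them, 30 passed the filter on low counts and were among the 10363 genes tested, and 8 did not pass. The rule used symbols alone, and the list was drawn up with earlier results of these data known.

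The data are 3' end RNA counts from the cortex of 16 C57BL/6 mice aged 12 to 12.93 months, with 1 library from each listed sample. The wild-type (WT) saline group had 6 mice with intact Grn, the gene of progranulin, a secreted protein that reaches lysosomes. The KO saline group had 5 Grn knockout mice given saline. The KO AAV group had 5 Grn knockout mice given AAV-8D3:PGRN at a dose of 300000000000 vector genomes through the tail vein. This virus makes the liver secrete human progranulin fused to an antibody fragment against the mouse transferrin receptor, so the vector's own product is human and made outside the brain, and both knockout groups lack mouse progranulin. Mice were perfused with buffered saline before the brain was taken, which removes most blood cells. The annotation gives a treatment duration of 8 months for every mouse. There was no WT group given the virus, and no KO group given a control vector, so an effect of the vector itself cannot be told apart from that of its product. WT saline had 3 males and 3 females, KO saline 4 males and 1 female, and KO AAV 3 males and 2 females.

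Microglia depend on signalling through the Csf1 receptor for survival and on transforming growth factor beta for the homeostatic gene programme, in which Sall1, Mef2c, Irf8 and the Spi1 product PU.1 act as transcription factors. Through P2ry12 they sense purine nucleotides released by other cells, and through Cx3cr1 the neuronal chemokine fractalkine. When microglia engage amyloid, myelin debris or dying cells, they can turn to a disease-associated state in which genes such as Clec7a, Lyz2 and Tyrobp are higher and several homeostatic genes are lower. The number of microglia and their state therefore leave different marks: more cells would raise pan-microglial genes together, while a change of state would move them apart. In whole cortex RNA, fewer cells of a type and less RNA per cell cannot be told apart, and neither can more of both.

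The 16 libraries held 1351974 to 2119019 counts each. KO saline libraries held 1351974 to 1720657, and KO saline replicates 1 to 3 had the lowest totals of all, 1351974 to 1409068. Values are given in CPM, counts divided by the library's total after TMM scaling. Members together made up 1702 to 3108 counts per library. No Grn count was found in any of the 10 libraries from knockout mice, against 226 over the 6 WT libraries (16 to 67 each). In 3 libraries, WT saline replicate 4 and KO saline replicates 1 and 3, the first component of the variation left after group means stood apart, at -35.2, -30.0 and -35.8, while the other 13 were at -10.1 or above. That component held 35.5% of the residual variance, and none of its 3 libraries was in the KO AAV group, so values without them are given where they change a call at an unadjusted p of 0.05 for a described member. Without them, a larger share of all genes had an unadjusted p under 0.05 in KO saline against WT saline. Unadjusted p-values of that fit are therefore not directly comparable with those of the main fit. The share of mitochondrial counts was 24.4%, 29.8% and 26.2% in these libraries and 20.4% to 25.5% in the others. Across 10354 genes, the loading on the component had a Spearman correlation of -0.38 with the GC content of the last 500 bases of the longest transcript, as a description across genes, which are not independent replicates.

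Cx3cr1 was among the members that followed this component. It was high in these 3 libraries, by 0.27, 0.45 and 0.46 on the log2 scale above their group means in WT replicate 4, KO replicate 1 and KO replicate 3. Tgfbr2, the type II receptor for transforming growth factor beta, was low in them by -1.28, -0.39 and -1.26. The members split in both directions: 8 were above their group mean in all 3 libraries (P2ry13, Cx3cr1, Mertk, Tmem119, Golm1, Sall1, Aif1 and Fcgr3), 7 were below in all 3 (among them Tgfbr1, Tgfbr2, Olfml3, Rnase4, Itgam and Bin1) and 15 were mixed. That is 50% of members the same way in all 3, against 48.6% of all genes tested. The component was computed from the same counts, so these deviations describe it and are not a test.

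**Figure D1:**
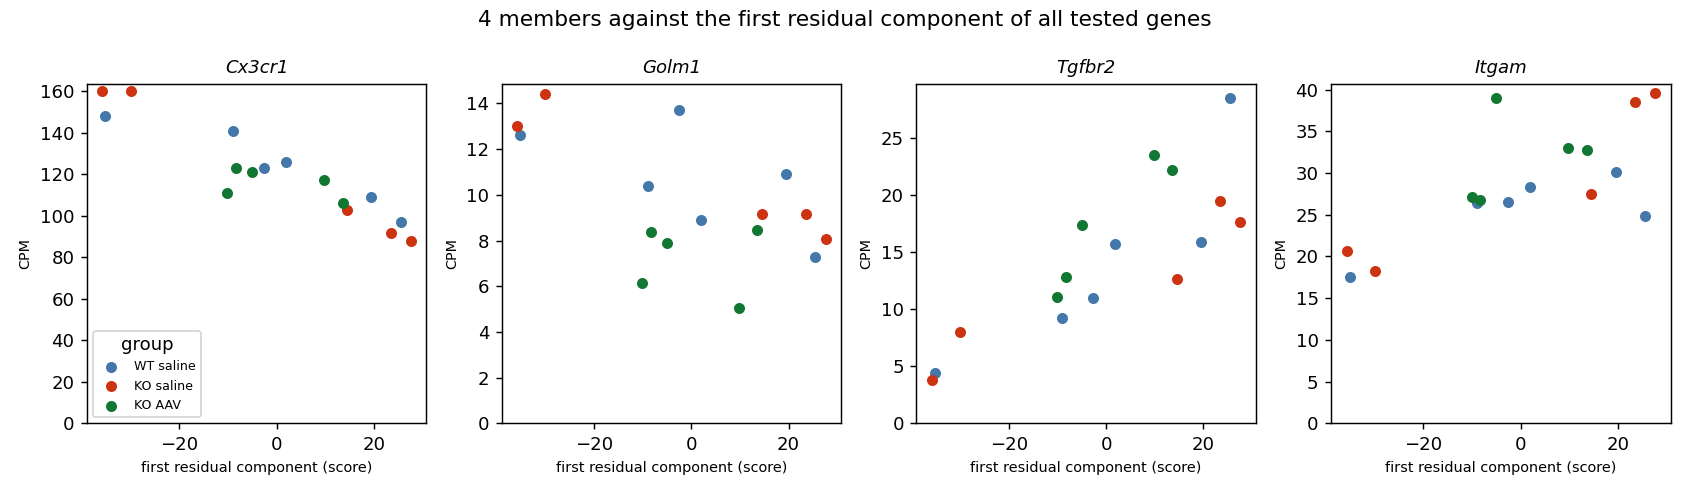
CPM of Cx3cr1, Golm1, Tgfbr2 and Itgam (y axis) against each library's score on the first residual component (x axis), with 1 point for each of the 16 libraries and colours for the 3 groups. Cx3cr1 is highest at 148 to 160 CPM in the 3 libraries at the left, and Tgfbr2 is lowest there at 3.82 to 7.98 CPM.

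The 30 tested members were compared first between Grn knockout with saline and WT saline. No member passed the adjusted threshold of 0.05, with 0.994 the lowest adjusted p by edgeR's quasi-likelihood test, and 0.0482% of all tested genes did. The median log2 difference, KO saline minus WT saline, was 0.16, or 1.12-fold, with quartiles of -0.03 and 0.34, beside a median of 0.004 and quartiles of -0.13 and 0.14 over all genes. Positive differences were found for 21 of 30 members (70%), against 50.9% of all genes. The median standard error of a member was 0.22, and the 95% interval of 29 of the 30 held the members' own median. That median comes from these same values and the intervals are wide. The count therefore cannot show whether the members moved together. At an unadjusted p under 0.05, 5 members (16.7%) were higher and 0 lower, beside 2.34% of all genes higher and 1.77% lower. The libraries of both groups did not overlap for 2 members (6.67%), among them Fcgr2b, beside 0.396% of all genes.

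**Figure D2:**
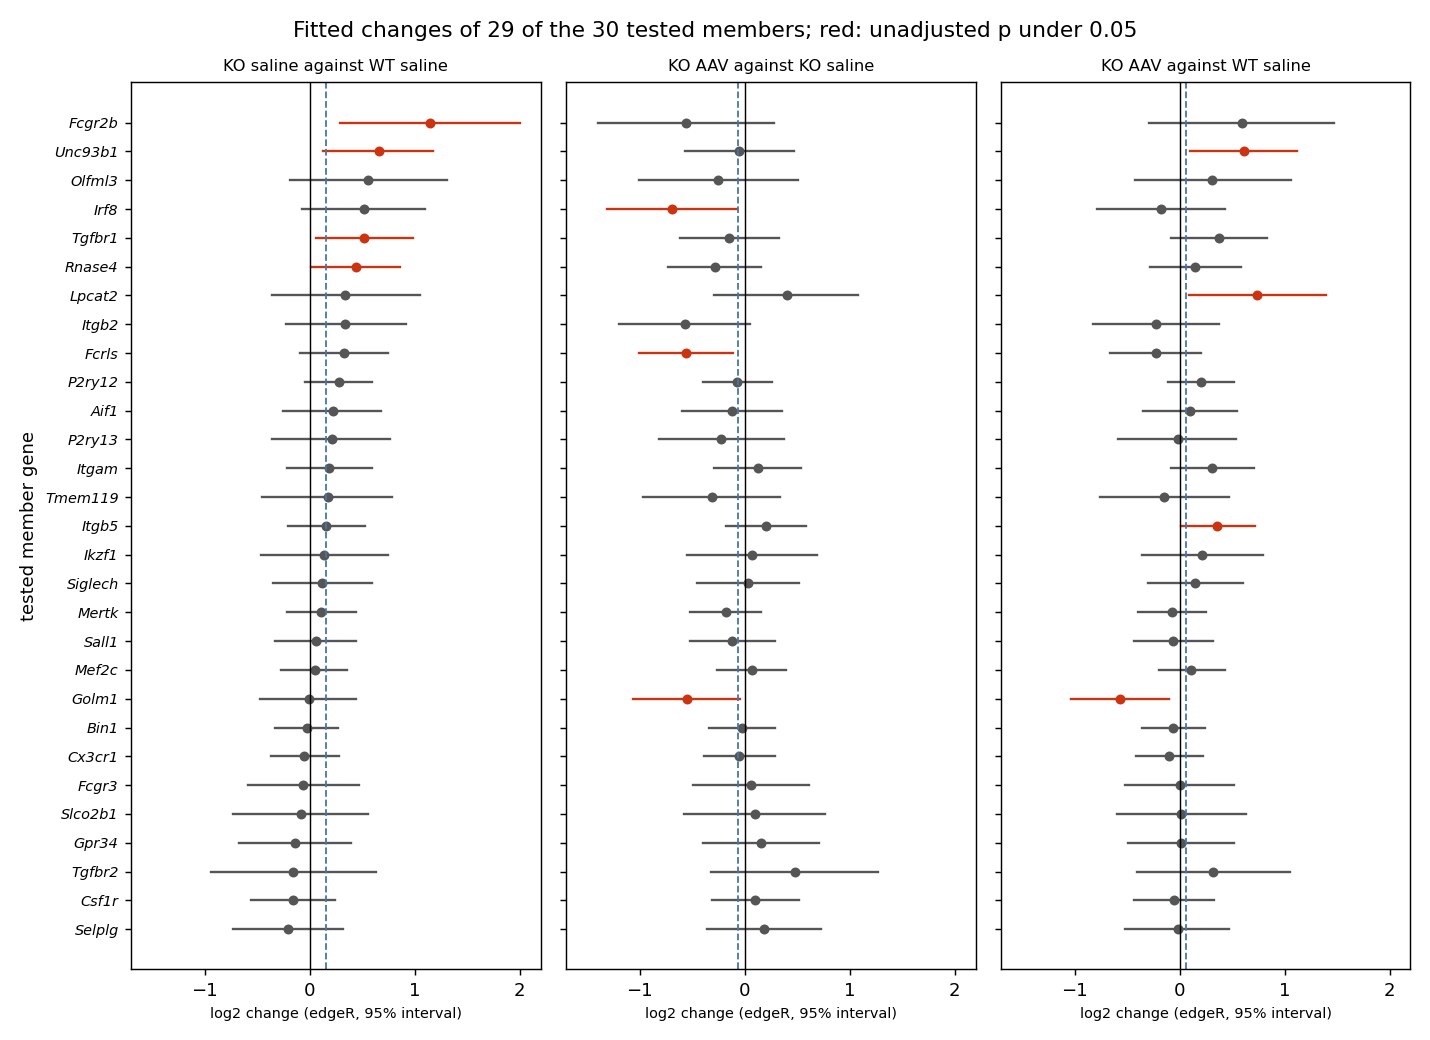
Fitted log2 change (x axis) of 29 of the 30 tested members (rows, in the order of their KO saline against WT saline change) in the 3 comparisons, with 95% intervals, red where the unadjusted p was under 0.05, and a dashed line at the members' median. In KO saline against WT saline the 4 red members lie to the right of 0, and in KO AAV against KO saline the 3 red members lie to its left.

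Among the Fc gamma receptors, which bind antibody, the inhibitory receptor Fcgr2b had the lowest p of any member between KO saline and WT saline. Its CPM was 0.548 to 6.07 with a median of 3.23 in WT saline, 10.4, 7.33, 6.11, 7.44 and 6.71 in KO saline replicates 1 to 5, and 10.1, 5.03, 4.22, 1.67 and 4.31 in KO AAV replicates 1 to 5. Every KO saline library was above every WT saline library, while KO AAV overlapped both. These values rest on few counts, 37 over the WT saline libraries, 55 over KO saline and 46 over KO AAV. KO saline was 2.22-fold of WT saline (log2 1.15 ± 0.41 SE, 95% interval 0.29 to 2.00, unadjusted p = 0.0111 and adjusted p = 0.994 by edgeR; n = 5 and 6). With the 3 libraries that stand apart left out the log2 difference was 0.86 with an unadjusted p of 0.0618 by edgeR.

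Fcgr3, a neighbouring activating receptor on chromosome 1, did not share this difference in value. Its CPM was 11.5 to 22.5 with a median of 15.5 in WT saline and 10.3 to 23.1 in KO saline, a log2 difference of -0.06 ± 0.26 SE (95% interval -0.59 to 0.47). Fcgr2b lies at chr1:170958617-170976547 and Fcgr3 at chr1:171051174-171064935, both on the minus strand of GRCm38. They are related in sequence, so reads could be split between them, and the difference between their changes was not tested. For each gene 1 RefSeq promoter window is shown (GRCm38.p6, 250 bases before to 50 after the start, read on the gene's strand). They are shown because the genes are related neighbours whose values differ. Both windows lie inside the gene spans above, which come from GENCODE, so the RefSeq starts used are not the GENCODE gene ends. Another Fcgr3 window, which overlaps this one and holds the same match, is not shown. Capitals mark GAGGAA on either strand, a part of the longer motif GAGGAAGT that PU.1 binds. Other forms of PU.1 site were not searched for and are not marked.
Fcgr2b, chr1:170976022-170976321: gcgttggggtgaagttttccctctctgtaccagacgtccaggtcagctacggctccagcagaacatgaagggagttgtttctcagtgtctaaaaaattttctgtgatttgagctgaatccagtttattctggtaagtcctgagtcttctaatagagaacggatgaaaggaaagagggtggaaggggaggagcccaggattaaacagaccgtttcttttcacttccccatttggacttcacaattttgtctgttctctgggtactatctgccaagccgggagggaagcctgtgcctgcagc
Fcgr3, chr1:171059354-171059653: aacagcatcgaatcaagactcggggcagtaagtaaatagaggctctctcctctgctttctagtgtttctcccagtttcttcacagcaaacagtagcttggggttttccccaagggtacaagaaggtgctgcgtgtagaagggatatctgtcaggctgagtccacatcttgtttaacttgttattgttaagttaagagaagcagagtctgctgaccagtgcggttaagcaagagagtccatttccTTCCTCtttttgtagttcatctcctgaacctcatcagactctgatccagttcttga
GAGGAA was found in the Fcgr3 window, as its reverse complement, and not in the Fcgr2b window. This says only that these letters are not in the Fcgr2b window, and not that PU.1 sites are absent from it. Among the 28 members with a window, 15 (53.6%) had GAGGAA on either strand in at least 1 window, and so did 31.3% of 27025 genes with one. The full motif was found in 2 members, Slco2b1 and Cyth4 (7.14%), and in 3.69% of genes. Some genes have several windows, and every match is a description of letters.

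Unc93b1, which carries nucleic acid sensing Toll-like receptors to endolysosomes, was 4.38 to 7.30 CPM with a median of 4.81 in WT saline. It was 11.2, 6.60, 6.87, 9.15 and 9.77 in KO saline, and 6.35, 9.50, 8.44, 11.7 and 6.16 in KO AAV. Both knockout groups had higher means than WT, and each overlapped it. KO saline was 1.58-fold of WT saline (log2 0.66 ± 0.25 SE, unadjusted p = 0.017 by edgeR), and KO AAV 1.52-fold (log2 0.61 ± 0.25 SE, unadjusted p = 0.0219 by edgeR). Without the 3 libraries that stand apart the differences were 0.58 (unadjusted p = 0.0765) and 0.56 (unadjusted p = 0.0477), both by edgeR. Lpcat2, which makes platelet-activating factor and remodels membrane lipids, was 1.23 to 7.33 CPM with a median of 4.11 in WT saline, 2.39, 6.60, 6.11, 5.15 and 7.93 in KO saline, and 7.94, 7.26, 8.97, 7.25 and 6.16 in KO AAV. KO AAV was 1.67-fold of WT saline (log2 0.74 ± 0.31 SE, unadjusted p = 0.027 by edgeR), with an overlap of the groups. Unc93b1 and Lpcat2 also rest on few counts. Over WT saline, KO saline and KO AAV these were 61, 64 and 76 for Unc93b1 and 50, 42 and 68 for Lpcat2. The exons of Lpcat2 overlap an antisense gene, as do those of Cx3cr1, Csf1r, Golm1 and Fcgr2b, and no source used here gives the strand setting of the counting.

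The growth factor and clearance receptors did not move as a group, with a median log2 difference of -0.02 over 4 genes between KO saline and WT saline. Csf1r, the survival receptor of microglia, was 30.1 to 43.3 CPM with a median of 31.7 in WT saline, 27.1, 33.7, 48.1, 22.3 and 22 in KO saline, and 26.5, 33.5, 43.3, 32.3 and 27.1 in KO AAV. The groups overlapped, and KO saline differed from WT saline by -0.16 ± 0.19 SE on the log2 scale (95% interval -0.56 to 0.24). Tgfbr1, the type I receptor for transforming growth factor beta, was 11 to 35.8 CPM with a median of 23.8 in WT saline, 25.5, 41.8, 29, 36.6 and 39.7 in KO saline, and 42.4, 27.4, 31.7, 26.2 and 28.9 in KO AAV. KO saline was 1.43-fold of WT saline (log2 0.52 ± 0.22 SE, unadjusted p = 0.0291 by edgeR). Without the 3 libraries the log2 difference was 0.55 (unadjusted p = 0.00952 and adjusted p = 0.24 by edgeR). These libraries are the lowest of their groups in Tgfbr1, so that value is no independent sign of a difference. The unadjusted call was kept in 25 of 32 alternatives. The highest p, 0.0954 by edgeR, came without the libraries of RNA integrity 8, WT saline replicate 3 and KO saline replicate 4. Tgfbr2 was lower by -0.16 ± 0.38 SE, and its value is one of those that follow the component. Mertk, which clears apoptotic cells, differed by 0.11 ± 0.16 SE.

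Of the purinergic and G-protein-coupled receptors, P2ry12 had a higher mean in KO saline and Cx3cr1 and Gpr34 did not. P2ry12 was 37.2 to 60.2 CPM with a median of 54.6 in WT saline, 54.2, 69.7, 71.8, 50.9 and 73.2 in KO saline, and 79.4, 55.9, 63.3, 50.2 and 54.8 in KO AAV. KO saline differed from WT saline by 0.28 ± 0.15 SE on the log2 scale (95% interval -0.04 to 0.59, unadjusted p = 0.0853 by edgeR). Its exons overlap Med12l on the opposite strand. Cx3cr1 was 97.2 to 148 CPM with a median of 124 in WT saline, 160, 88, 160, 103 and 91.6 in KO saline, and 106, 117, 121, 123 and 111 in KO AAV. Both KO saline libraries at 160 are among the 3 that stand apart, and the other 3 were at 88 to 103. KO saline differed from WT saline by -0.05 ± 0.16 SE (95% interval -0.37 to 0.28), by -0.34 without the 3 libraries (unadjusted p = 0.0178 by edgeR) and by -0.08 with all libraries and the component added to the model (unadjusted p = 0.417 by edgeR). The component was computed from counts that include Cx3cr1, and both libraries left out of KO saline are the highest of that group in Cx3cr1, so the value without them is no independent sign of a difference. P2ry13 differed by 0.21 ± 0.27 SE and Gpr34 by -0.14 ± 0.26 SE.

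The other homeostatic surface and secreted products had a median log2 difference of 0.14 over 8 genes between KO saline and WT saline, with 5 positive. Tmem119, a surface marker that separates microglia from blood-derived macrophages, was 5.76 to 11 CPM with a median of 9.52 in WT saline, 12, 10.3, 13.7, 5.72 and 8.54 in KO saline, and 2.65, 11.2, 10, 8.92 and 6.77 in KO AAV. KO saline differed from WT saline by 0.17 ± 0.30 SE (95% interval -0.45 to 0.78), a wide interval on 97 and 71 counts. Rnase4, a secreted ribonuclease, was 13.5 to 29.8 CPM with a median of 24.5 in WT saline, 24.7, 37.4, 22.1, 30.9 and 36 in KO saline, and 29.1, 31.3, 24.3, 20.1 and 19.7 in KO AAV. KO saline differed from WT saline by 0.44 ± 0.21 SE (unadjusted p = 0.0467 by edgeR), an unadjusted call kept in 13 of 32 alternatives, and its exons overlap Ang on the same strand. Fcrls, an Fc receptor-like gene specific to microglia in mouse brain, was 11.5 to 20 CPM with a median of 15.9 in WT saline, 21.5, 16.1, 26, 18.9 and 17.1 in KO saline, and 11.1, 15.6, 10.6, 11.1 and 19.1 in KO AAV. Golm1, a Golgi membrane protein, was 7.29 to 13.7 CPM with a median of 10.7 in WT saline, 14.4, 8.07, 13, 9.15 and 9.16 in KO saline, and 8.47, 5.03, 7.91, 8.36 and 6.16 in KO AAV. Siglech, Selplg, Olfml3 and Slco2b1 differed between KO saline and WT saline by 0.12, -0.21, 0.56 and -0.08, each with an interval that held 0.

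All 4 tested transcription factors had positive log2 differences between KO saline and WT saline, with a median of 0.10, and none had an unadjusted p under 0.05. Sall1, a factor that sets microglial identity, was 19.9 to 37.4 CPM with a median of 27.4 in WT saline, 41.5, 26.4, 30.5, 25.2 and 26.2 in KO saline, and 30.2, 27.4, 26.4, 34 and 18.5 in KO AAV. It differed by 0.06 ± 0.19 SE between KO saline and WT saline (95% interval -0.33 to 0.44). Irf8, which acts with PU.1, was 3.04 to 7.85 CPM with a median of 5.56 in WT saline, 7.18, 12.5, 6.11, 8.58 and 5.49 in KO saline, and 4.24, 5.59, 5.80, 5.02 and 3.69 in KO AAV. KO saline differed from WT saline by 0.52 ± 0.28 SE (95% interval -0.07 to 1.10, unadjusted p = 0.0797 by edgeR), and without the 3 libraries by 0.73 (unadjusted p = 0.0424 by edgeR). Mef2c differed by 0.05 ± 0.15 SE and Ikzf1 by 0.14 ± 0.29 SE. Mef2c, which neurons also express strongly, reached 377 to 677 CPM over all libraries, so it dominates any sum over the members.

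The integrins, leukocyte surface and cytoskeletal genes had a median log2 difference of 0.18 over 5 tested genes between KO saline and WT saline, and 4 of them were positive. Itgb2, the beta chain of leukocyte integrins, was 3.64 to 7.33 CPM with a median of 5.25 in WT saline, 5.58, 4.40, 7.63, 6.87 and 8.54 in KO saline, and 2.65, 2.79, 6.33, 5.02 and 5.54 in KO AAV. Its partner Itgam, which encodes the alpha chain CD11b, differed by 0.18 ± 0.20 SE between KO saline and WT saline. Itgb5, an integrin beta chain, was 12 to 15.8 CPM with a median of 14.3 in WT saline, 16, 22.7, 14.5, 14.9 and 11.6 in KO saline, and 15.4, 20.1, 19.0, 20.6 and 16 in KO AAV. Aif1, which encodes the calcium-binding protein IBA1 used to stain microglia, differed by 0.22 ± 0.22 SE, and Bin1, a membrane-curving protein that neurons and oligodendrocytes also make, by -0.03 ± 0.15 SE.

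**Figure D3:**
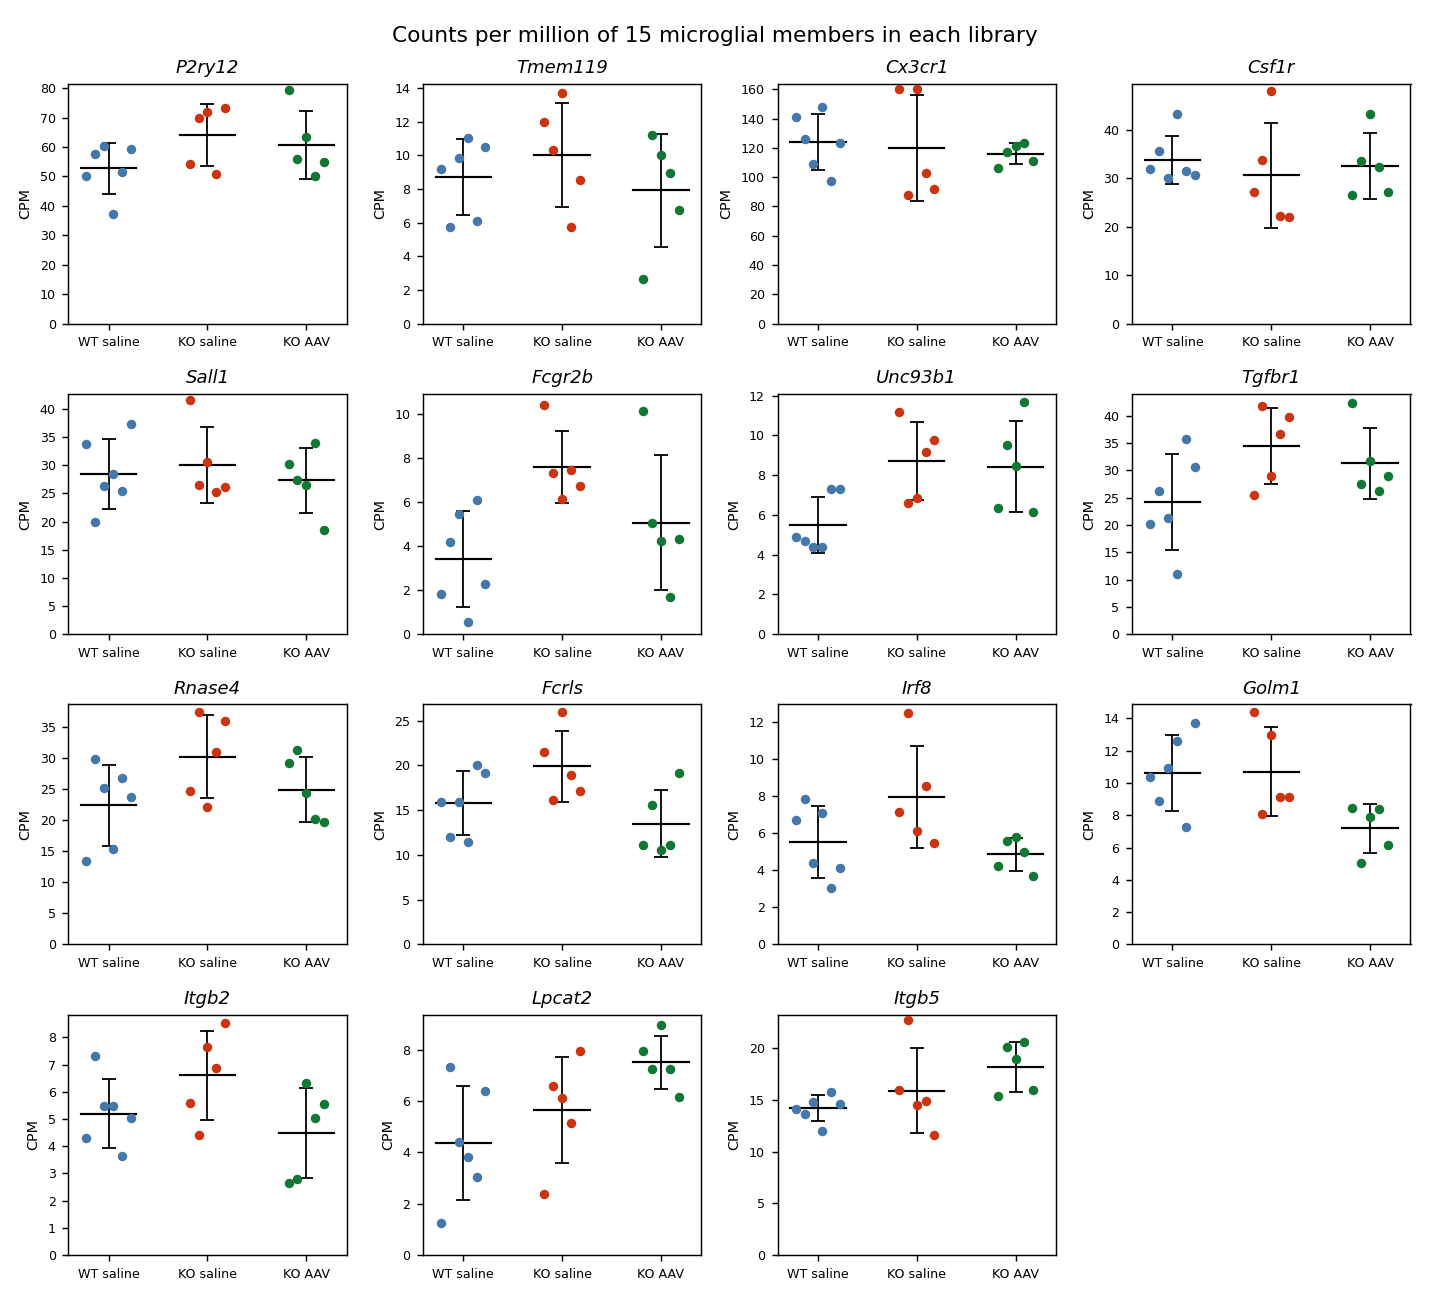
CPM (y axis, starting at 0) of 15 described members in each library by group, with 1 point per library, a bar at the group mean and an error bar of 1 SD (n = 6 WT saline, 5 KO saline, 5 KO AAV). Fcgr2b is the panel where every KO saline point lies above every WT saline point.

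The 8 members below the filter had at most 15 counts in any library. Ptprc, the CD45 phosphatase on all leukocytes, was 1.64 to 3.19 CPM with a median of 2.23 in WT saline, 3.19, 8.80, 3.82, 2.86 and 3.66 in KO saline, and 3.71, 5.59, 2.11, 3.34 and 5.54 in KO AAV. Its counts were 26, 32 and 36 over the libraries of WT saline, KO saline and KO AAV. The groups overlapped, with KO saline replicate 4 at 2.86 CPM below the highest WT saline library at 3.19. Of these 8 members, Ptprc was picked for description after its values were seen. The two-sided exact permutation test of mean CPM gave p = 0.00649 for KO saline against WT saline and p = 0.0238 for KO AAV against WT saline, unadjusted, where the smallest p these designs can give is 0.002165. No share over all genes was computed for this test. P2ry6, Spi1, Entpd1, Cyth4, Fcgr1, Ly86 and Ltc4s gave 0.115 or more in that test in each of the 3 comparisons.

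Between KO AAV and KO saline the question is whether treatment moves these genes. No member passed the adjusted threshold (lowest adjusted p of 1 by edgeR), and 0.0193% of all tested genes did. The median log2 difference, KO AAV minus KO saline, was -0.06 with quartiles of -0.24 and 0.09, beside -0.01 with quartiles of -0.13 and 0.11 over all genes, and 18 of 30 members were negative. At an unadjusted p under 0.05, 0 members were higher and 3 (10%) lower, beside 0.868% of all genes higher and 1.62% lower, and no member's groups were free of overlap, beside 0.511% of all genes. The 3 lower members were Fcrls (-0.56 ± 0.22 SE, unadjusted p = 0.0173 by edgeR), Irf8 (-0.69 ± 0.30 SE, unadjusted p = 0.0308 by edgeR) and Golm1 (-0.55 ± 0.24 SE, unadjusted p = 0.0348 by edgeR). The KO AAV values of Irf8 and Golm1 overlapped the lowest KO saline library alone, while 1 KO AAV library of Fcrls, at 19.1 CPM, was above 3 KO saline libraries. Without the 3 libraries the difference was -0.37 for Fcrls (unadjusted p = 0.13), -0.82 for Irf8 (unadjusted p = 0.0265) and -0.28 for Golm1 (unadjusted p = 0.331), each by edgeR.

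Of the 5 members with an unadjusted p under 0.05 in KO saline against WT saline, none was past an unadjusted p of 0.05 in KO AAV against KO saline. The log2 differences, which share the KO saline libraries with the first comparison, were -0.56 ± 0.40 SE for Fcgr2b, -0.05 ± 0.25 SE for Unc93b1, -0.15 ± 0.23 SE for Tgfbr1 and -0.28 ± 0.21 SE for Rnase4. Without the 3 libraries the Rnase4 difference was -0.47 (unadjusted p = 0.0356 by edgeR). Itgb2 differed by -0.57 ± 0.30 SE (unadjusted p = 0.0683 by edgeR). The homeostatic anchors had intervals that held 0: P2ry12 -0.40 to 0.26, Tmem119 -0.97 to 0.34, Cx3cr1 -0.39 to 0.29, Csf1r -0.31 to 0.52 and Sall1 -0.52 to 0.29. Cx3cr1 differed by -0.05 with all libraries, by -0.01 with the component added to the model (unadjusted p = 0.91 by edgeR) and by 0.30 without the 3 libraries (unadjusted p = 0.0333 by edgeR), where the KO saline libraries left out are the highest in this gene.

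Against WT saline, KO AAV had no member past the adjusted threshold (lowest adjusted p of 0.881 by edgeR), beside 0.00965% of all genes. The median log2 difference was 0.06, beside -0.005 over all genes, and 18 of 30 members were positive. At an unadjusted p under 0.05, 3 members (10%) were higher and 1 (3.33%) lower, beside 1.66% of all genes higher and 2.36% lower, and no member was free of overlap, beside 0.318% of all genes. The higher ones were Unc93b1, Lpcat2 and Itgb5 (0.36 ± 0.17 SE, unadjusted p = 0.0451 by edgeR, and 0.0878 without the 3 libraries), and the lower one was Golm1 (-0.57 ± 0.23 SE, unadjusted p = 0.0206 by edgeR).

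The ligands and regulators of the member receptors were looked at beside them. Of 22 such genes 19 were tested, none passed the adjusted threshold in any comparison, and their median log2 difference between KO saline and WT saline was 0.01, with 11 positive. The lowest unadjusted p belonged to Maf, a transcription factor of macrophages (0.63 ± 0.22 SE, unadjusted p = 0.00918 by edgeR). Csf1, a ligand of Csf1r, had a higher p (log2 difference 0.69 ± 0.34 SE, unadjusted p = 0.0533 by edgeR). In KO AAV against KO saline, Maf differed by -0.26 ± 0.23 SE.

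The disease-associated microglia genes differed more in value than the identity genes. Of 21 tested, 20 had positive differences between KO saline and WT saline with a median of 0.28, beside 50.9% positive over all genes. The adjusted threshold was passed by 2 of them, beside 0.0482% of all genes. Clec7a, a receptor for fungal glucans, differed by 3.06 ± 0.40 SE (adjusted p = 0.000509 by edgeR). Lyz2, a myeloid lysozyme, differed by 1.71 ± 0.31 SE (adjusted p = 0.0277 by edgeR). Tyrobp, the adaptor of Trem2 signalling, differed by 0.59 ± 0.14 SE (adjusted p = 0.565 by edgeR). In KO AAV against KO saline 16 of 21 were negative and 5 positive, with a median of -0.24, beside 47.6% of all genes positive. Clec7a passed the adjusted threshold at -3.02 ± 0.43 SE (adjusted p = 0.00454 by edgeR), as did 0.0193% of all genes. In KO AAV against WT saline 14 of 21 were positive with a median of 0.07, beside 49% of all genes, and 0 passed the adjusted threshold. The 95% intervals of 4 of the 21 lay above the identity genes' median in KO saline against WT saline, a count for which no share over all genes was computed. The difference between both lists was not tested.

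**Figure D4:**
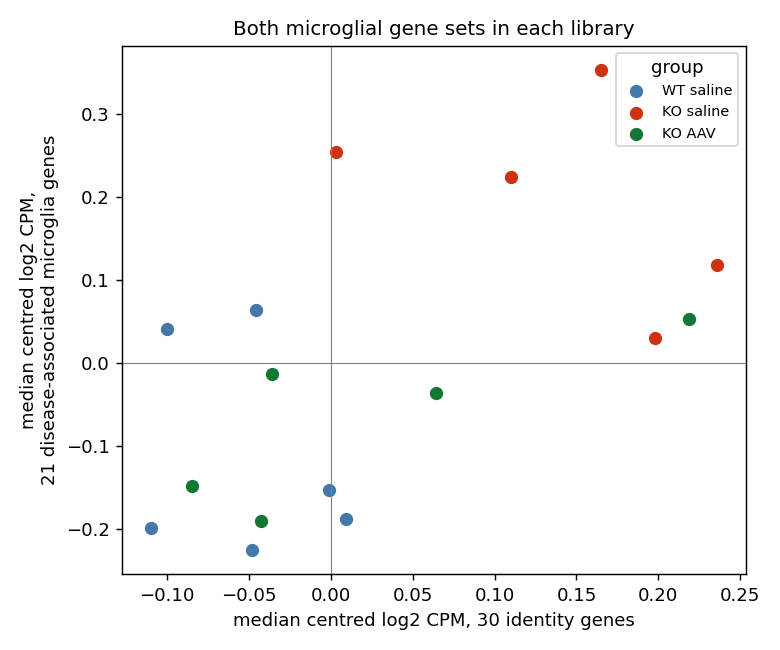
Median over the 30 tested identity genes (x axis) and over the 21 tested disease-associated genes (y axis) of the log2 CPM less each gene's mean over the 16 libraries, with 1 point per library. KO saline libraries lie at 0.003 to 0.236 on the x axis and 0.031 to 0.353 on the y axis.

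Per library, the identity genes' median of centred log2 CPM was -0.11 to 0.009 in WT saline, 0.003 to 0.236 in KO saline and -0.085 to 0.219 in KO AAV. The disease-associated genes' median was -0.225 to 0.064, 0.031 to 0.353 and -0.19 to 0.053. The KO saline library lowest in the identity genes (replicate 4, at 0.003) was at 0.254 in the disease-associated genes, and the one highest in them (replicate 2, at 0.236) was at 0.118.

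Markers of other cells were looked at beside these values, and their part in the results was not tested. Of 8 border-associated macrophage markers 1 passed the filter, and it differed by 0.72 between KO saline and WT saline and by -0.62 between KO AAV and KO saline on the log2 scale, each at an unadjusted p under 0.05 by edgeR. At that level 2.34% of all genes were higher in the first of these comparisons and 1.62% lower in the second. That gene alone does not stand for the 8 markers. Their summed CPM was 7.66 to 18.4 in WT saline, 11.4 to 19.8 in KO saline and 11.1 to 16.2 in KO AAV. The 10 neutrophil and monocyte markers summed to 15.2 to 38.9 CPM with a median of 20.8 in WT saline, 18.9 to 43.1 with a median of 38.3 in KO saline and 16.4 to 26.9 with a median of 22.8 in KO AAV, so the median was higher in KO saline while the ranges overlapped. The 1 tested gene of this list differed by -0.09 in KO saline against WT saline and by 0.04 in KO AAV against KO saline on the log2 scale. The 9 lymphocyte markers summed to 29 to 40.3, 17.1 to 41.5 and 24 to 37.4, and Cd3e, Cd79a, Cd8a and Nkg7 were at 0 in all 3 groups. No astrocyte, oligodendrocyte, endothelial and mural or neuron marker passed the adjusted threshold in any comparison, with 8 tested in each list. No member passed it either. In KO saline against WT saline the median log2 differences were 0.10 (astrocyte), -0.09 (oligodendrocyte), 0.01 (endothelial and mural) and -0.05 (neuron). In KO AAV against KO saline they were -0.13, 0.07, 0.07 and -0.06 in that order. There 7 of 8 astrocyte markers were negative and 8 of 8 endothelial and mural markers positive.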

How the data were processed

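Cortex RNA of 16 mice was sequenced with a 3' end kit with unique molecular identifiers, per the labels' protocols. The submitters' processing notes name FastQC 0.11.5, STAR, MultiQC 1.0, R 4.2, edgeR 3.40.2 and the build GRCm38.p6. The deposited raw counts per gene hold at most 2 significant digits, so counts of 100 or more are rounded (85 of 608 member values), and column sums lie within 0.284% of the deposited library sizes. The deposited normalized table (signal; CPM) is rounded likewise and served only as an alternative, and the normalization factors (a ratio) in the deposited annotation were not used.

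From the counts, edgeR 4.0.16 in R 4.3.3 gave TMM scaling, filterByExpr and the quasi-likelihood test in 1 model of the 3 groups fitted to the 16 libraries together, with Benjamini-Hochberg adjustment over all 10363 tested genes and a threshold of 0.05. CPM are counts divided by the TMM-scaled library totals. A SE is the log2 change divided by the root of the F value. Single members below the filter had a two-sided exact permutation test of mean CPM. Scripts were tested on simulated data. The common biological coefficient of variation was 0.181, and totals of 1351974 to 2119019 counts limit the precision of genes with few counts. Groups come from the sample titles, and the labels do not tie equal replicate numbers to a litter or day. Positions come from GENCODE on GRCm38.

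The members and gene lists were chosen with earlier results of these data known. Values in every library of KO saline and KO AAV, and the lowest, median and highest of WT saline, are given for the anchors P2ry12, Tmem119, Cx3cr1, Csf1r and Sall1, any member past the adjusted threshold and the 5 tested members of lowest p in each comparison. From the ligand and disease-associated lists, the 3 genes of lowest p in KO saline against WT saline are named. A few genes that these rules select are not reported here, though all counts and medians include them. Ptprc was described in full after its values were seen. Alternatives were other scalings, filters, tests (DESeq2 1.42.0, limma 3.58.1), covariates and libraries left out. The fits without the 3 libraries that stand apart and with the first residual component added were chosen after seeing the data.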

Additional observations from a re-analysis of the deposited data

Results flagged for a closer look

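Olfml3, a secreted olfactomedin-like protein of microglia, was at 8.50 CPM (14 counts) in WT saline replicate 5, while the other 5 WT saline libraries were at 2.19 to 4.11 CPM. Its gap to the nearest library was larger than Dixon's test allows at the 95% level. Chance alone flags about 1 in 20 of the 90 combinations of member and group examined. This was the 1 flagged, fewer than that rate would give, so it is not read as a result. The library is not among the 3 that stand apart.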

How the results depend on the processing

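No member passed the adjusted threshold in any of the 3 comparisons under any of the 32 alternatives. The members' median log2 change kept its direction in all of them, at 0.096 to 0.239 for KO saline against WT saline, -0.097 to -0.01 for KO AAV against KO saline and 0.012 to 0.185 for KO AAV against WT saline, the highest of these, 0.185, in males alone. Counts of members at an unadjusted p under 0.05 moved more. In KO saline against WT saline the count of 5 became 3 in males alone. In KO AAV against KO saline the count of 3 became 1 with DESeq2, where the share of all genes went from 2.49% to 1.8%. For KO AAV against WT saline the count of 4 became 2 with RNA integrity as a term, 2 in males alone and 8 with that component added to the model, where 13.1% of all genes had such a p. Leaving out 1 library at a time gave 3 to 6, 1 to 3 and 2 to 4 members. The counts moved by over 1.5 times, to 3, without WT saline replicate 1 or 4 or KO saline replicate 2 in the first comparison, to 1 without KO AAV replicate 5 or KO saline replicate 3 in the second, and to 2 without KO AAV replicate 2, 3 or 4 or WT saline replicate 1 or 6 in the third. Shares over all genes are not given here for these fits, for males alone or for RNA integrity as a term. Their counts are therefore not read as a change particular to the members. With the 3 libraries that stand apart left out, 7 members had such a p in KO saline against WT saline, where 13.3% of all genes did. Among single members with such a p, Rnase4 in KO saline against WT saline and Itgb5 in KO AAV against WT saline kept it in 13 of 32 alternatives each. Of 48 changes of named members, 14 changed sign in at least 1 alternative, all of them at an unadjusted p of 0.05 or more in the main test, and 1 of the changed values passed that level: Cx3cr1 in KO AAV against KO saline, at 0.30 without the 3 libraries. The cause was not tested.

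With the replicate number as a block, 6 members had an unadjusted p under 0.05 in KO saline against WT saline, 3 in KO AAV against KO saline and 3 in KO AAV against WT saline. The share over all genes is not given here for that fit, so these counts are not read against those of the main fit. Of 15 pairs of libraries with the same number, 5 had correlated deviations above 0.1 and 4 below -0.1. These correlations also carry the first residual component, so they cannot show whether the numbers pair the samples. All mice of replicates 1 and 2 were males aged 12.2 months, while age or sex differed within replicates 3, 4 and 5. Depth limits the members with few counts, such as Fcgr2b, Tmem119, Olfml3, Unc93b1, Lpcat2, Irf8 and Itgb2. Nothing in the labels says more on how the mice of a group relate, so p-values measure the spread between these samples.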
